A study of Mus musculus with 32 samples.

Results

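The 35 genes described here are interferon-stimulated genes, chosen by symbol from the 55401 genes of a table of raw RNA counts, and all 35 lie outside the chromosome 16 segment that the aneuploid mice carry in an additional copy. They were measured in cerebral cortex of mice aged 6 weeks. Ts65Dn;Df(17)2 mice gave 10 libraries (5 male, 5 female), Dp(16)1/Df(16)8 mice gave 10 (5 male, 5 female) and euploid +/+ mice gave 12 (6 male, 6 female), each labelled with its own animal number. As background, Ts65Dn carries distal chromosome 16 on a freestanding additional chromosome together with centromeric chromosome 17, while Dp(16)1 carries the duplicated region inside chromosome 16. The deletions Df(17)2 and Df(16)8 bring back to the normal copy number the parts that the other chromosome does not add, so both aneuploid genotypes keep a shared additional segment that holds the receptor genes Ifnar1, Ifnar2 and Ifngr2. No strain background, litter or housing is given in the labels used here. RNA of the whole tissue was counted, so fewer cells of a type and less RNA per cell cannot be told apart.

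Type I interferons bind a receptor made of IFNAR1 and IFNAR2. The kinases JAK1 and TYK2 then act on STAT2, which joins IRF9 in the complex ISGF3. ISGF3 binds the interferon-stimulated response element in promoters and switches on genes that detect, bind or destroy viral nucleic acids, modify proteins or present peptides on class I MHC. Interferon gamma acts through IFNGR1 and IFNGR2 on genes that hold the gamma-activated site. In brain these genes are known to be low at rest, with microglia and cells of the vessels among their sources.

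The response element is visible in the promoters of several of these genes. RefSeq promoters of build GRCm38.p6 were at hand for 28 of the 35 genes, and the core GAAANNGAAA was searched on both strands in the 250 bases before the start. It was present in 10 of 28 genes (35.7%), against 936 of 27025 genes in the whole table (3.46%). The gamma-activated core TTCNNNGAA was present in 4 of 28 (14.3%), against 8.13% of the 27025 genes. A match is a run of letters and not a measured binding site. The stretches printed here hold the cores in capitals with the bases beside them, read on the strand of the gene. Rsad2 is shown because it was higher in Ts65Dn;Df(17)2 cortex. The 4 after it were chosen after their values were seen. They are genes with a core whose levels, scaled for library size, were highest in Dp(16)1/Df(16)8 replicate 4, a library that stood apart. Bst2, Trim30a and B2m also hold a core and were also highest in that library, but are not printed.
Rsad2 (chr12:26456548-26456587, minus strand): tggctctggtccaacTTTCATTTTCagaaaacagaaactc
Ifit1 (chr19:34640770-34640828, plus strand): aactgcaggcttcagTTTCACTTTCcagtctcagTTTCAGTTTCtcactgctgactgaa
Ifit3 (chr19:34583358-34583431, plus strand): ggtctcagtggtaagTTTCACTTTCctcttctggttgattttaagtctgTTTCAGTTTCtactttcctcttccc
Ifit3b (chr19:34607754-34607827, plus strand): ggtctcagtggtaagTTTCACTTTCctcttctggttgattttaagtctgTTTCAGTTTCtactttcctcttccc
Isg15 (chr4:156200860-156200911, minus strand): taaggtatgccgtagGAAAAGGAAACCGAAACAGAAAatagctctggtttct
Rsad2 holds 1 core, 120 bases before the start, on the strand opposite to the gene. Ifit1, Ifit3 and Ifit3b hold 2 each, and Isg15 holds 3 that overlap one another. The stretches of Ifit3 and Ifit3b have the same 74 bases. Reads of these neighbouring copies may be hard to assign, so their separate counts are uncertain. The cores in the other 5 promoters belong to Bst2, Trim30a, Oas1a, Stat2 and B2m. Lgals3bp and Trim25, which were also higher in Ts65Dn;Df(17)2 cortex, have promoters in the table with no such core in this window.

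The smallest library, Dp(16)1/Df(16)8 replicate 4, held 5795479 counts and the largest 11189548 (median 7883104.5). Over 14 checked genes of the additional segment, the median level of a library relative to the +/+ mean was 1.44 to 1.52 in Ts65Dn;Df(17)2 libraries, 1.44 to 1.53 in those of Dp(16)1/Df(16)8 and 0.960 to 1.04 in +/+, so that every library stood on the side its genotype label gives. Dp(16)1/Df(16)8 replicate 2 is labelled female but had 14 Xist counts, where the other libraries labelled female had 9990 or more, and 696 and 281 counts of the Y-linked genes Ddx3y and Eif2s3y. It was kept with its label, and results on sex are given with and without it. Markers of excitatory cortical neurons were present throughout, at summed levels of 3030 to 4758, 3024 to 5799 and 2965 to 6057 CPM in the 3 genotypes in the same order. Markers of striatal neurons, which belong to a neighbouring region, summed to 1052 to 3802 CPM in Ts65Dn;Df(17)2, 454 to 4177 CPM in Dp(16)1/Df(16)8 and 334 to 4306 CPM in +/+, and were higher on average in both aneuploid groups. CPM are counts per 1000000, with library totals scaled by TMM factors. One library, Dp(16)1/Df(16)8 replicate 4 from a female, stood apart in the interferon-stimulated genes, so the log2 changes of these genes in that genotype are given also without it where it moved them by more than 1.5 times.

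Levels of the 35 genes were low for most and high for a few. Per kilobase of exon, B2m, the light chain of class I MHC, was highest at 41.18 CPM in Ts65Dn;Df(17)2, 40.57 CPM in Dp(16)1/Df(16)8 and 37.30 CPM in +/+. Adar, which edits adenosine to inosine in double-stranded RNA, followed with 26.18, 25.68 and 26.25 CPM per kilobase in the same order. Ifi27, Ifitm3 and Cmpk2 came next in +/+, and lay between 4.513 and 7.358 CPM per kilobase in every genotype. Zbp1, a sensor of nucleic acids in left-handed form, was lowest at 0.02799, 0.03268 and 0.01545 CPM per kilobase, with at most 3 counts in a library. In all, 28 of the 35 genes passed the filter on low counts and were tested. The 7 that did not were Isg15, Usp18, Bst2, Xaf1, Oas1a, Oas2 and Zbp1. Since a gene can pass that filter through a single group, the 28 are not spoken of as all 35.

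In Ts65Dn;Df(17)2 against +/+ cortex, 3 of the 28 tested genes rose (Rsad2, Trim25 and Lgals3bp), 0 fell and 25 did not pass, by the quasi-likelihood test of edgeR at an adjusted p of 0.05 (Benjamini-Hochberg, over 16042 genes). Of all genes tested 3.97% were called, and 1.75% were called as higher. At an unadjusted p under 0.05 there were 8 of the 28, all higher, beside 21.8% of all genes. The fold change was above 1 for 25 of 28, with a median log2 of 0.23, against 51.4% of all genes and a median of 0.00475. In Dp(16)1/Df(16)8 against the same +/+ libraries 0 of 28 passed, beside 0.573% of all genes called, with 9 at an unadjusted p under 0.05, beside 12.8%. DESeq2, which gave 23 of the 28 an adjusted p, and limma voom also called 0 in Dp(16)1/Df(16)8. The fold change there was above 1 for 24 of 28, with a median log2 of 0.24, against 50.5% of all genes. Without replicate 4 it was above 1 for 23 of 28 with a median of 0.15, against 50.1% of all genes, and 4 had an unadjusted p under 0.05 (Ifit1, Lgals3bp, Trim25 and Trim30a), beside 10.2% of all genes. Both comparisons use the same +/+ libraries, so the values are given side by side and neither supports the other.

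**Figure D1:**
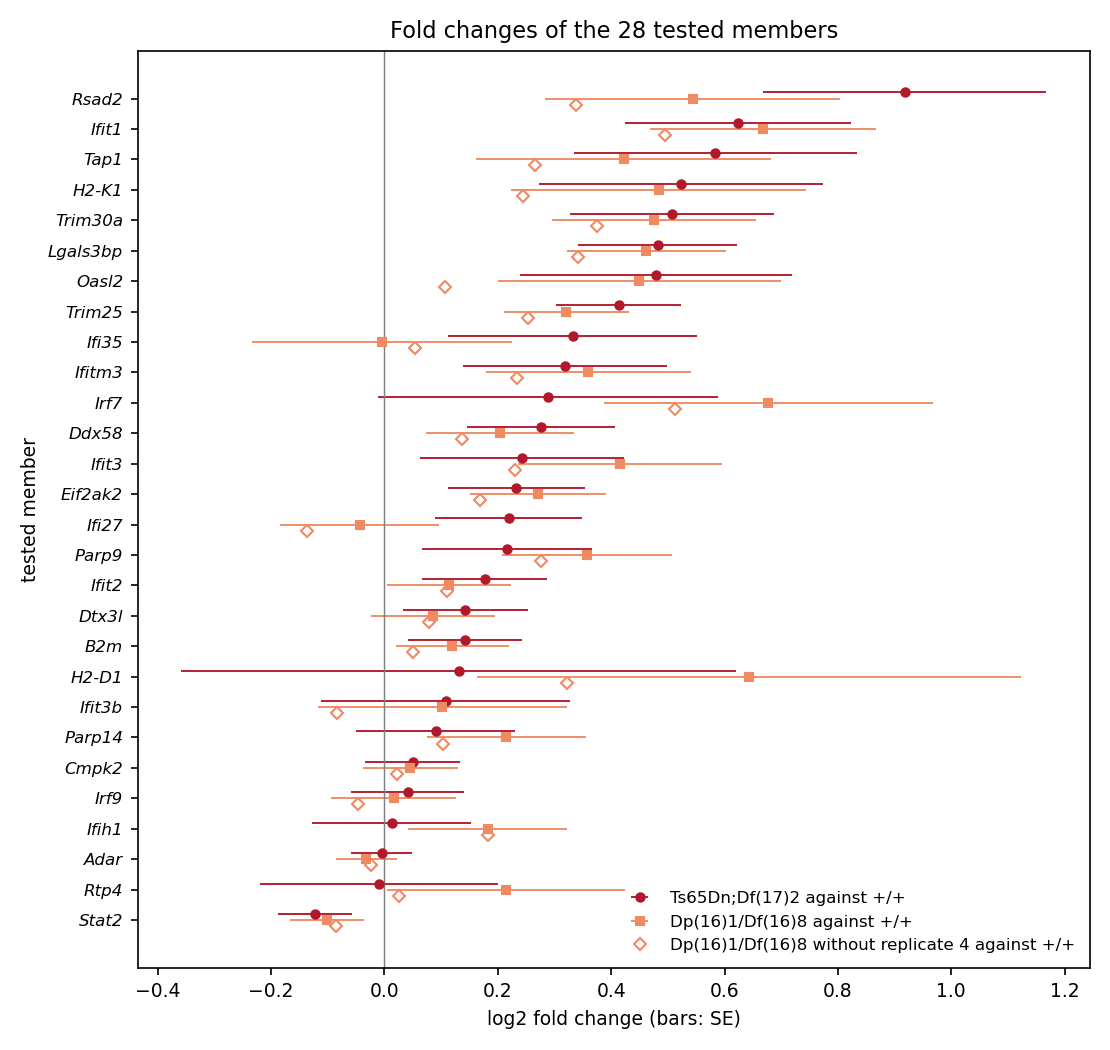
Log2 fold changes of the 28 tested genes (rows, ordered by the Ts65Dn;Df(17)2 value) against +/+, for Ts65Dn;Df(17)2 (circles), Dp(16)1/Df(16)8 (squares) and Dp(16)1/Df(16)8 without replicate 4 (open diamonds). Bars are standard errors. Rsad2 is at the top with 0.92 in Ts65Dn;Df(17)2 and Stat2 at the bottom with -0.12, and most open diamonds sit left of the squares.

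Rsad2 (chr12:26442746-26456452, minus strand, GRCm38), which encodes viperin, an enzyme that makes a chain-terminating nucleotide against viral polymerases, had the largest log2 change of the 28 in Ts65Dn;Df(17)2. Its level was 1.66 at the lowest, 2.15 at the median and 3.02 CPM at the highest in Ts65Dn;Df(17)2, 0.739, 1.47 and 4.02 CPM in Dp(16)1/Df(16)8, and 0.361, 1.15 and 2.6 CPM in +/+. All 10 Ts65Dn;Df(17)2 libraries lay above the +/+ mean of 1.2 CPM, yet the groups overlapped, since +/+ replicate 11 reached 2.6. These levels rest on 14 to 23 counts in a Ts65Dn;Df(17)2 library and 3 to 20 in a +/+ library. The log2 fold change was 0.92 ± 0.25 (SE, adjusted p = 0.0352) in Ts65Dn;Df(17)2 and 0.54 ± 0.26 (adjusted p = 0.374) in Dp(16)1/Df(16)8, where it was 0.34 without replicate 4. Its neighbour Cmpk2, a mitochondrial nucleotide kinase induced with it, had 14.8, 19.9 and 23.3 CPM in Ts65Dn;Df(17)2, 15.7, 19.7 and 24.1 CPM in Dp(16)1/Df(16)8, and 14.4, 19.2 and 21.5 CPM in +/+. The pair did not move alike, as the log2 change of Cmpk2 in Ts65Dn;Df(17)2 was 0.05 ± 0.084. In Dp(16)1/Df(16)8 that of Cmpk2 was 0.05 ± 0.084, and 0.02 without replicate 4.

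Lgals3bp (chr11:118392751-118402092, minus strand), a secreted glycoprotein that binds galectins, had 8.87, 13.3 and 17.2 CPM in Ts65Dn;Df(17)2 at the lowest, the median and the highest library, 9.39, 11.9 and 22.3 CPM in Dp(16)1/Df(16)8, and 6.72, 9.61 and 14.2 CPM in +/+. It was above the +/+ mean in 8 of 10 Ts65Dn;Df(17)2 and in 10 of 10 Dp(16)1/Df(16)8 libraries, with overlap in both cases. The log2 change was 0.48 ± 0.14 (SE, adjusted p = 0.0468) in Ts65Dn;Df(17)2 and 0.46 ± 0.14 (adjusted p = 0.143) in Dp(16)1/Df(16)8, where it was 0.34 without replicate 4. Trim25 (chr11:88999376-89020293, plus strand), the ubiquitin ligase that activates the RNA sensor RIG-I, had 7.96, 10.1 and 13 CPM in Ts65Dn;Df(17)2, 6.83, 9.58 and 14.4 CPM in Dp(16)1/Df(16)8, and 4.95, 8.48 and 9.11 CPM in +/+. All 10 Ts65Dn;Df(17)2 libraries were above the +/+ mean of 7.84 CPM, and 8 of them were above the highest +/+ library. The log2 change was 0.41 ± 0.11 (SE, adjusted p = 0.0374) in Ts65Dn;Df(17)2 and 0.32 ± 0.11 (adjusted p = 0.240) in Dp(16)1/Df(16)8, where it was 0.25 without replicate 4.

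The 3 calls lie close to the threshold, and leaving out 1 library could end each of them. Rsad2 did not pass without Ts65Dn;Df(17)2 replicate 2, 6, 7 or 8 or +/+ replicate 4, 5, 9 or 10 (adjusted p from 0.0544 to 0.0681, edgeR). Trim25 did not pass without Ts65Dn;Df(17)2 replicate 1, 2, 6, 7 or 8 or +/+ replicate 4, 5, 7, 9 or 10 (from 0.0518 to 0.0810). Lgals3bp did not pass in 19 of 32 such fits, those without Ts65Dn;Df(17)2 replicate 1, 2, 4, 5, 6, 7, 8 or 9, Dp(16)1/Df(16)8 replicate 2, 5, 6 or 8, or +/+ replicate 1, 3, 4, 5, 7, 9 or 10 (from 0.0502 to 0.101). Their log2 changes stayed between 0.83 and 1.08 for Rsad2, 0.37 and 0.46 for Trim25, and 0.43 and 0.56 for Lgals3bp. With the striatal marker score of each library as a term the log2 changes were 0.80 (adjusted p = 0.184) for Rsad2, 0.26 (0.290) for Trim25 and 0.32 (0.319) for Lgals3bp, and the calls over all genes numbered 148 in place of 637. In that fit the median log2 change of the 28 genes was 0.14 in Ts65Dn;Df(17)2 and 0.22 in Dp(16)1/Df(16)8. Animal numbers fall into 5 blocks of neighbours, and the 1 block with all 3 genotypes in it held 8, 3 and 6 animals. In the block that held all genotypes Rsad2 averaged 2.40 ± 0.54 (SD, n = 8), 2.08 ± 1.7 (n = 3) and 1.49 ± 0.63 CPM (n = 6) in the genotypes in that order, Trim25 10.7 ± 1.6, 12.1 ± 2.0 and 8.25 ± 1.6 CPM, and Lgals3bp 13 ± 2.8, 15.3 ± 6.1 and 10.1 ± 2.1 CPM. With the blocks as a term the 3 genes had log2 changes of 0.69, 0.34 and 0.33 in Ts65Dn;Df(17)2. There they did not pass (adjusted p of 0.459, 0.320 and 0.499, edgeR), while Lgals3bp passed in Dp(16)1/Df(16)8 (log2 0.51, adjusted p = 0.0342, edgeR). The calls over all genes in that fit numbered 86 in Ts65Dn;Df(17)2, in place of 637, and 236 in Dp(16)1/Df(16)8, in place of 92.

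**Figure D2:**
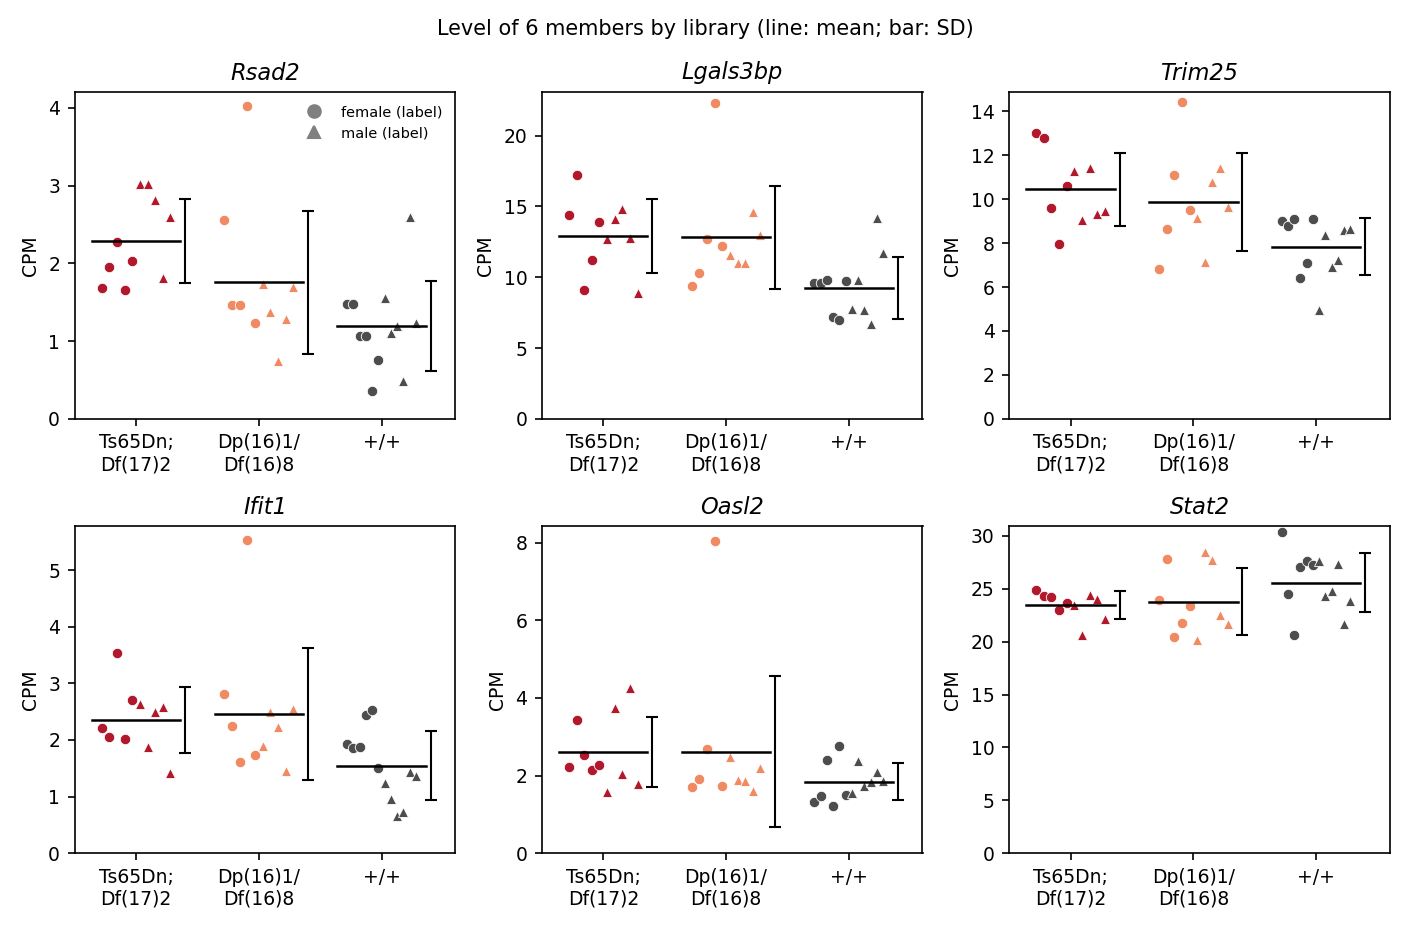
Level in CPM (vertical axes) of 6 genes in each library, with Ts65Dn;Df(17)2 left, Dp(16)1/Df(16)8 in the middle and +/+ right; circles are animals labelled female and triangles male, lines are means and bars SD. Dp(16)1/Df(16)8 replicate 4 is the highest point for Rsad2, Lgals3bp, Trim25, Ifit1 and Oasl2, at 8.05 CPM for Oasl2, and sits low for Stat2.

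The 4 IFIT genes lie together on chromosome 19 and encode proteins with tetratricopeptide repeats that bind foreign RNA. None passed in either comparison over all 32 libraries. Ifit1, which binds viral RNA lacking a cap methyl group, had 1.42, 2.35 and 3.53 CPM in Ts65Dn;Df(17)2, 1.45, 2.23 and 5.53 CPM in Dp(16)1/Df(16)8, and 0.664, 1.47 and 2.53 CPM in +/+. It was above the +/+ mean of 1.54 CPM in 9 of 10 libraries of each aneuploid genotype, and the groups overlapped. Its log2 change was 0.62 ± 0.20 (SE, adjusted p = 0.0634) in Ts65Dn;Df(17)2 and 0.67 ± 0.20 (adjusted p = 0.140) in Dp(16)1/Df(16)8, where it was 0.50 without replicate 4. In Ts65Dn;Df(17)2 it passed when only that genotype and +/+ were fitted (adjusted p = 0.0400, edgeR), without Dp(16)1/Df(16)8 replicate 4 (0.0389) and without +/+ replicate 11 (0.0466). Ifit2 was the highest of the 4 per kilobase, and it had 9.37, 10.8 and 11.6 CPM in Ts65Dn;Df(17)2, 7.39, 9.89 and 17.0 CPM in Dp(16)1/Df(16)8, and 6.94, 9.06 and 13 CPM in +/+. Its 17.0 CPM came from Dp(16)1/Df(16)8 replicate 1, not from replicate 4. Ifit3 had 2.78, 4.01 and 4.81 CPM in Ts65Dn;Df(17)2, 1.93, 4.16 and 9.89 CPM in Dp(16)1/Df(16)8, and 2.41, 3.14 and 4.54 CPM in +/+, with log2 changes of 0.24 ± 0.18 and 0.42 ± 0.18, the second 0.23 without replicate 4. Its copy Ifit3b differed by 0.11 ± 0.22 and 0.10 ± 0.22, and there the second was -0.08 without replicate 4.

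Isg15, the ubiquitin-like protein that is joined to other proteins after interferon, and Usp18, the protease that removes it, were too low to test. Isg15 had 33 counts over the 10 Ts65Dn;Df(17)2 libraries, 33 over the 10 Dp(16)1/Df(16)8 and 25 over the 12 +/+ libraries, with 8 of the Dp(16)1/Df(16)8 counts in replicate 4. Usp18 had 69, 60 and 65 counts in the same order. Their changes were not detectable at this depth.

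Of the other antiviral effectors besides Rsad2 and Lgals3bp, 6 were tested and none passed. Ifitm3, a membrane protein that blocks virus entry, had 2.48, 3.92 and 7.22 CPM in Ts65Dn;Df(17)2, 3.05, 4.37 and 8.21 CPM in Dp(16)1/Df(16)8, and 2.14, 3.46 and 4.74 CPM in +/+. Its log2 changes were 0.32 ± 0.18 and 0.36 ± 0.18, the second 0.23 without replicate 4. Rtp4, a receptor-transporting protein that also restricts viruses, had 0.937, 1.47 and 2.58 CPM in Ts65Dn;Df(17)2, 1.11, 1.48 and 4.19 CPM in Dp(16)1/Df(16)8, and 0.929, 1.38 and 2.51 CPM in +/+. For Rtp4 the 3 medians were close and the highest value was again that of Dp(16)1/Df(16)8 replicate 4. Its log2 change in that genotype was 0.215 ± 0.21, and 0.03 without replicate 4. Trim30a, a tripartite-motif protein of mice, had a log2 change of 0.51 ± 0.18 in Ts65Dn;Df(17)2 (adjusted p = 0.0863) and 0.48 ± 0.18 in Dp(16)1/Df(16)8, and reads of its close relatives may be shared with it. Ifi27 and Ifi35 were at 0.22 ± 0.13 and 0.33 ± 0.22 in Ts65Dn;Df(17)2, and at -0.04 ± 0.14 and -0.0041 ± 0.23 in Dp(16)1/Df(16)8, where they were -0.14 and 0.05 without replicate 4. Bst2, or tetherin, which holds budding virus at the cell surface, had 69, 96 and 64 counts in the 3 genotypes, and 23 of the 96 were in Dp(16)1/Df(16)8 replicate 4. Xaf1 had 79, 71 and 102 counts.

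The oligoadenylate synthetase group makes 2′-5′ oligoadenylates that activate an RNA-cutting enzyme. Oasl2 had 1.58, 2.23 and 4.26 CPM in Ts65Dn;Df(17)2, 1.61, 1.89 and 8.05 CPM in Dp(16)1/Df(16)8, and 1.22, 1.78 and 2.77 CPM in +/+. Its log2 change was 0.48 ± 0.24 in Ts65Dn;Df(17)2 (adjusted p = 0.245) and 0.45 ± 0.25 in Dp(16)1/Df(16)8, and without replicate 4 the second was 0.11. Oas1a had 40 counts in Ts65Dn;Df(17)2, 28 counts in Dp(16)1/Df(16)8 and 20 counts in +/+, with all 10 Ts65Dn;Df(17)2 libraries above the +/+ mean, and Oas2 had 74, 51 and 53. Both were below the filter, and Oas1a shares sequence with several neighbouring copies, so its count is uncertain.

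Among sensors and RNA-binding enzymes, 5 were tested and Trim25 alone passed, in Ts65Dn;Df(17)2. Eif2ak2, or PKR, which halts translation on binding double-stranded RNA, had 5.68, 9.15 and 11.4 CPM in Ts65Dn;Df(17)2, 7.63, 8.51 and 16.1 CPM in Dp(16)1/Df(16)8, and 5.80, 7.76 and 9.87 CPM in +/+. Its log2 changes were 0.23 ± 0.12 and 0.27 ± 0.12, with adjusted p of 0.235 and 0.328, and the second was 0.17 without replicate 4. Ddx58, which encodes RIG-I, differed by 0.28 ± 0.13 and 0.20 ± 0.13 (0.14 without replicate 4), and Ifih1, which encodes the sensor MDA5, by 0.01 ± 0.14 and 0.18 ± 0.14. Adar was measured most precisely, with 187, 204 and 242 CPM in Ts65Dn;Df(17)2, 192, 206 and 233 CPM in Dp(16)1/Df(16)8, and 185, 208 and 255 CPM in +/+. The 95% intervals of its fold change, from the SE by a normal approximation, were 0.927 to 1.07 and 0.909 to 1.05. Adar overlaps Chrnb2 on the other strand, and without a stated strand setting their reads cannot be told apart. Zbp1 had 7, 9 and 5 counts over the groups.

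The 3 transcription factors did not pass. Stat2, a subunit of ISGF3, had 20.6, 23.9 and 24.9 CPM in Ts65Dn;Df(17)2, 20.2, 23 and 28.5 CPM in Dp(16)1/Df(16)8, and 20.6, 26 and 30.4 CPM in +/+. All 10 Ts65Dn;Df(17)2 libraries were below the +/+ mean of 25.6 CPM, and the log2 change was -0.12 ± 0.065 (SE, adjusted p = 0.270). In Dp(16)1/Df(16)8 it was -0.10 ± 0.065. Irf9, its DNA-binding partner, differed by 0.04 ± 0.10 and 0.02 ± 0.11, the second -0.05 without replicate 4. Irf7, the factor that drives interferon gene expression itself and is induced by interferon, had 0.379, 1.03 and 2.03 CPM in Ts65Dn;Df(17)2, 0.678, 1.37 and 3.18 CPM in Dp(16)1/Df(16)8, and 0.370, 0.655 and 2.14 CPM in +/+. Its log2 changes were 0.29 ± 0.30 and 0.68 ± 0.29, and without Dp(16)1/Df(16)8 replicate 4 the second was 0.51. Irf9 overlaps Rnf31 and Irf7 overlaps Phrf1, so part of their counts is uncertain.

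Parp9, Parp14 and Dtx3l work together in ADP-ribosylation and ubiquitination at interferon target genes and DNA breaks, and they lie side by side on chromosome 16 (chr16:35832874-35972605 in all), outside the additional segment. None passed. Parp9 had 2.30, 3.13 and 4.68 CPM in Ts65Dn;Df(17)2, 2.2, 3.66 and 5.53 CPM in Dp(16)1/Df(16)8, and 1.90, 2.81 and 3.87 CPM in +/+. Dtx3l, the highest of the 3 per kilobase, had 5.39, 8.19 and 10.5 CPM, 5.30, 7.55 and 10 CPM, and 5.36, 7.07 and 9.29 CPM in the same order. Log2 changes of Parp9, Parp14 and Dtx3l were 0.22 ± 0.15, 0.09 ± 0.14 and 0.14 ± 0.11 in Ts65Dn;Df(17)2, and 0.36 ± 0.15, 0.22 ± 0.14 and 0.09 ± 0.11 in Dp(16)1/Df(16)8, where Parp14 was at 0.10 without replicate 4. Parp9 and Dtx3l overlap on opposite strands.

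None of the 4 genes of class I MHC presentation passed, and H2-D1 was the most variable of the 28 between libraries. H2-D1, a class I heavy chain, ran from 2.13 over a median of 7.24 to 21.8 CPM in Ts65Dn;Df(17)2, from 2.18 over 13.6 to 41.9 CPM in Dp(16)1/Df(16)8, and from 1.70 over 6.67 to 20.1 CPM in +/+. High and low libraries occurred in every genotype, and its SD was 6.78, 12.1 and 6.61 CPM. The log2 changes of 0.13 ± 0.49 and 0.64 ± 0.48 have the widest errors of all 28 genes, and the second was 0.32 without replicate 4. H2-K1, the second heavy chain, had 3.91, 7.51 and 12.4 CPM in Ts65Dn;Df(17)2, 3.0, 6.93 and 21.1 CPM in Dp(16)1/Df(16)8, and 2.48, 5.14 and 9.99 CPM in +/+, with log2 changes of 0.52 ± 0.25 and 0.48 ± 0.26, the second 0.24 without replicate 4. The heavy chain genes resemble each other and other class I genes, so their counts are uncertain. Tap1, a subunit of the peptide transporter, had 1.31, 1.97 and 3.28 CPM in Ts65Dn;Df(17)2, 0.785, 1.61 and 3.69 CPM in Dp(16)1/Df(16)8, and 0.617, 1.5 and 2.36 CPM in +/+, with log2 changes of 0.58 ± 0.25 (adjusted p = 0.165) and 0.42 ± 0.26, the second 0.27 without replicate 4. B2m was far less variable, with 28.8, 34.4 and 45.4 CPM, 29.3, 33.9 and 50.1 CPM, and 20.3, 30 and 41.9 CPM in the same order. The log2 changes of B2m were 0.14 ± 0.10 and 0.12 ± 0.10, the second 0.05 without replicate 4. Tap1 overlaps Psmb9 on the other strand.

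**Figure D3:**
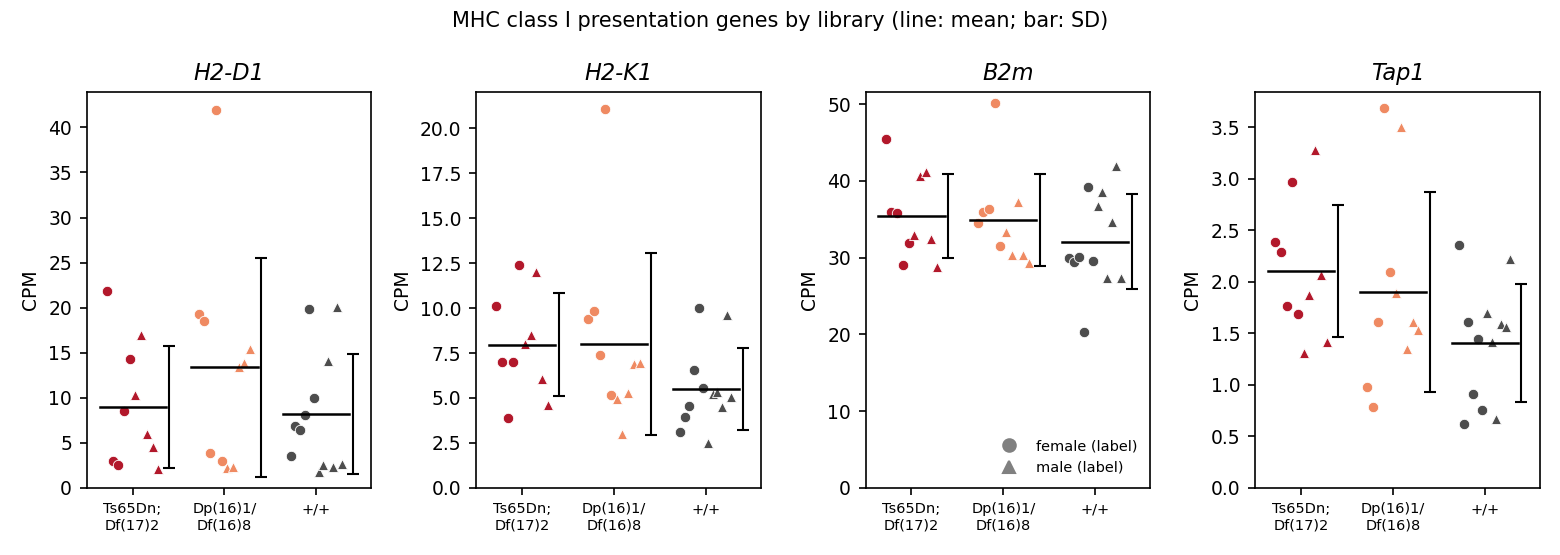
Level in CPM (vertical axes) of the 4 class I MHC presentation genes in each library, with Ts65Dn;Df(17)2 left, Dp(16)1/Df(16)8 in the middle and +/+ right; circles are animals labelled female and triangles male, lines are means and bars SD. H2-D1 spreads from 1.70 to 41.9 CPM with low and high libraries in each genotype, while B2m stays between 20.3 and 50.1 CPM.

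Each library was given a score, for which the +/+ mean of a gene was taken from its log2 CPM and the 28 tested genes were averaged. The score averaged 0.25 ± 0.18 in Ts65Dn;Df(17)2 (SD, n = 10), 0.24 ± 0.28 in Dp(16)1/Df(16)8 (n = 10) and 0 ± 0.14 in +/+ (n = 12). The lowest, median and highest scores were -0.103, 0.303 and 0.438 in Ts65Dn;Df(17)2, 0.0134, 0.138 and 1.00 in Dp(16)1/Df(16)8, and -0.195, -0.0229 and 0.232 in +/+. Of the Ts65Dn;Df(17)2 libraries 6 scored above every +/+ library and 1, replicate 10, scored below the +/+ mean. Of the Dp(16)1/Df(16)8 libraries 2 scored above every +/+ library, replicate 4 at 1.00 and replicate 1 at 0.361. Without replicate 4 the Dp(16)1/Df(16)8 mean was 0.15 ± 0.10 (SD, n = 9), about the size of the +/+ spread. With the 4 class I MHC genes left out of the score, the means were 0.23 ± 0.16, 0.22 ± 0.25 and 0 ± 0.12. In the block of neighbouring animal numbers that holds all genotypes, the means were 0.246 ± 0.19 (n = 8), 0.448 ± 0.48 (n = 3) and 0.0286 ± 0.13 (n = 6). The 3 Dp(16)1/Df(16)8 scores there were 1.00 in replicate 4, 0.192 in replicate 8 and 0.150 in replicate 3. A sum of the CPM of all 35 genes, which Adar and B2m dominate, differed from +/+ by log2 0.08 in Ts65Dn;Df(17)2 and also by log2 0.08 in Dp(16)1/Df(16)8, so a score that weights genes equally gives another size than the total does.

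**Figure D4:**
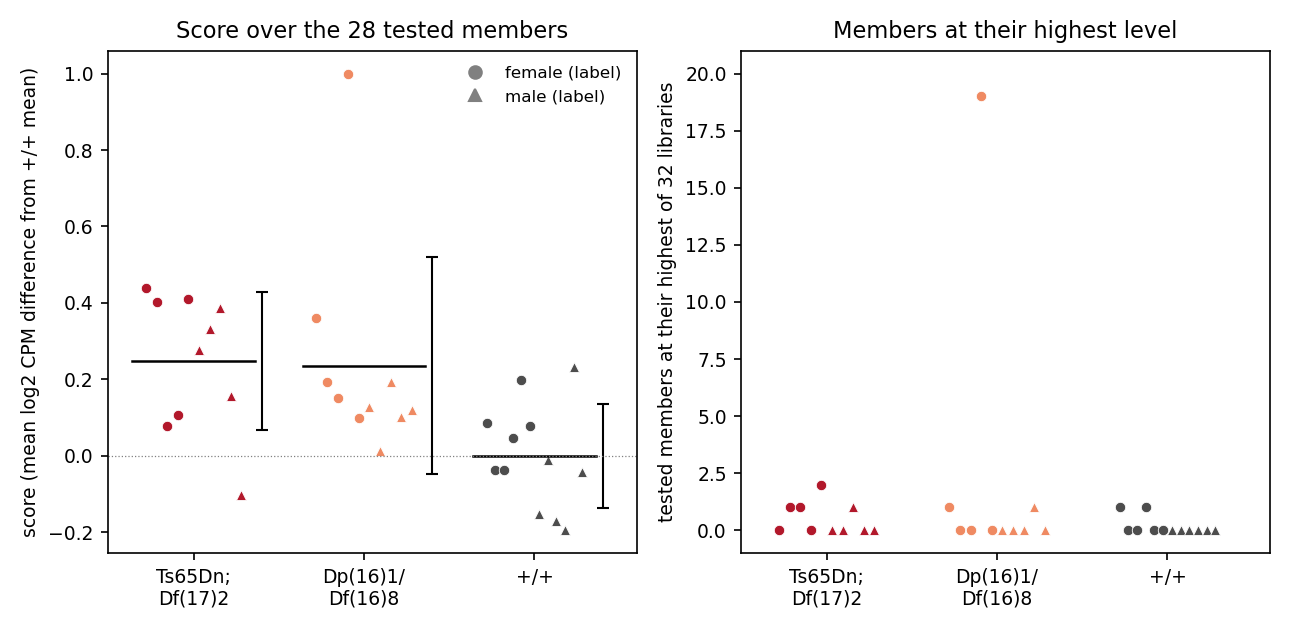
Left, the score of each library (vertical axis, mean log2 CPM difference from the +/+ mean over 28 genes), with lines for means and bars for SD. Right, the number of the 28 genes that had their highest level of all 32 libraries in that library. Ts65Dn;Df(17)2 is left, Dp(16)1/Df(16)8 in the middle and +/+ right; circles are animals labelled female and triangles male. Dp(16)1/Df(16)8 replicate 4 scored 1.00 and held the highest level of 19 genes.

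By role, the scores of Ts65Dn;Df(17)2 libraries averaged 0.27 ± 0.18 for the IFIT genes, 0.33 ± 0.19 for the other antiviral effectors, 0.17 ± 0.21 for the sensors, 0.05 ± 0.26 for the transcription factors, 0.14 ± 0.20 for the ADP-ribosylation group and 0.35 ± 0.45 for class I MHC. In Dp(16)1/Df(16)8 they averaged 0.26 ± 0.43, 0.23 ± 0.27, 0.19 ± 0.15, 0.16 ± 0.26, 0.20 ± 0.26 and 0.36 ± 0.56 in that order, and without replicate 4 0.15 ± 0.29, 0.15 ± 0.13, 0.14 ± 0.07, 0.10 ± 0.19, 0.14 ± 0.18 and 0.22 ± 0.32. The SD of +/+ scores for these roles ran from 0.11 for the sensors to 0.40 for class I MHC. In Ts65Dn;Df(17)2 the means of the IFIT genes, of the other effectors and of the sensors were above the +/+ SD of the same role, and those of the transcription factors, of the ADP-ribosylation group and of class I MHC were below it.

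Dp(16)1/Df(16)8 replicate 4 had 19 of the 28 tested genes at their highest level of 32 libraries, where 4.58% of all tested genes were highest in it, and 22 of all 35. It was also the library with the fewest counts, 5795479. Of the 28, 11 were at least 2-fold above the mean of the other 9 Dp(16)1/Df(16)8 libraries, beside 1.38% of all genes, and no other library had more than 2 such genes within its own genotype. H2-D1 reached 41.9 CPM against a mean of 10.2 in the other 9 (4.11-fold), and Oasl2 8.05 against 2.00 (4.02-fold). H2-K1 was 3.23-fold higher, Rtp4 2.72-fold, Ifit3b 2.71-fold, Rsad2 2.67-fold, Ifit1 2.62-fold, Irf7 2.6-fold, Ifit3 2.58-fold, Tap1 2.16-fold and Ifitm3 2.00-fold. Of genes too low to test, Isg15 (8 counts, 3.71-fold) and Bst2 (23 counts, 3.59-fold) were high as well. Of the genes with a response element core, Rsad2, Ifit1, Ifit3, Ifit3b, Isg15, Bst2, Trim30a and B2m were highest of 32 libraries in replicate 4. Trim30a stood at 1.91-fold and B2m at 1.51-fold. The other genes with a core were lower in it than in the other 9, Stat2 at 0.907-fold and Oas1a, with 1 count, at 0.405-fold. Adar was at 0.965-fold, Ifit2 at 1.08-fold, Ifih1 at 1.12-fold and Cmpk2 at 1.15-fold, and Ifi35 was lower at 0.624-fold.

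**Figure D5:**
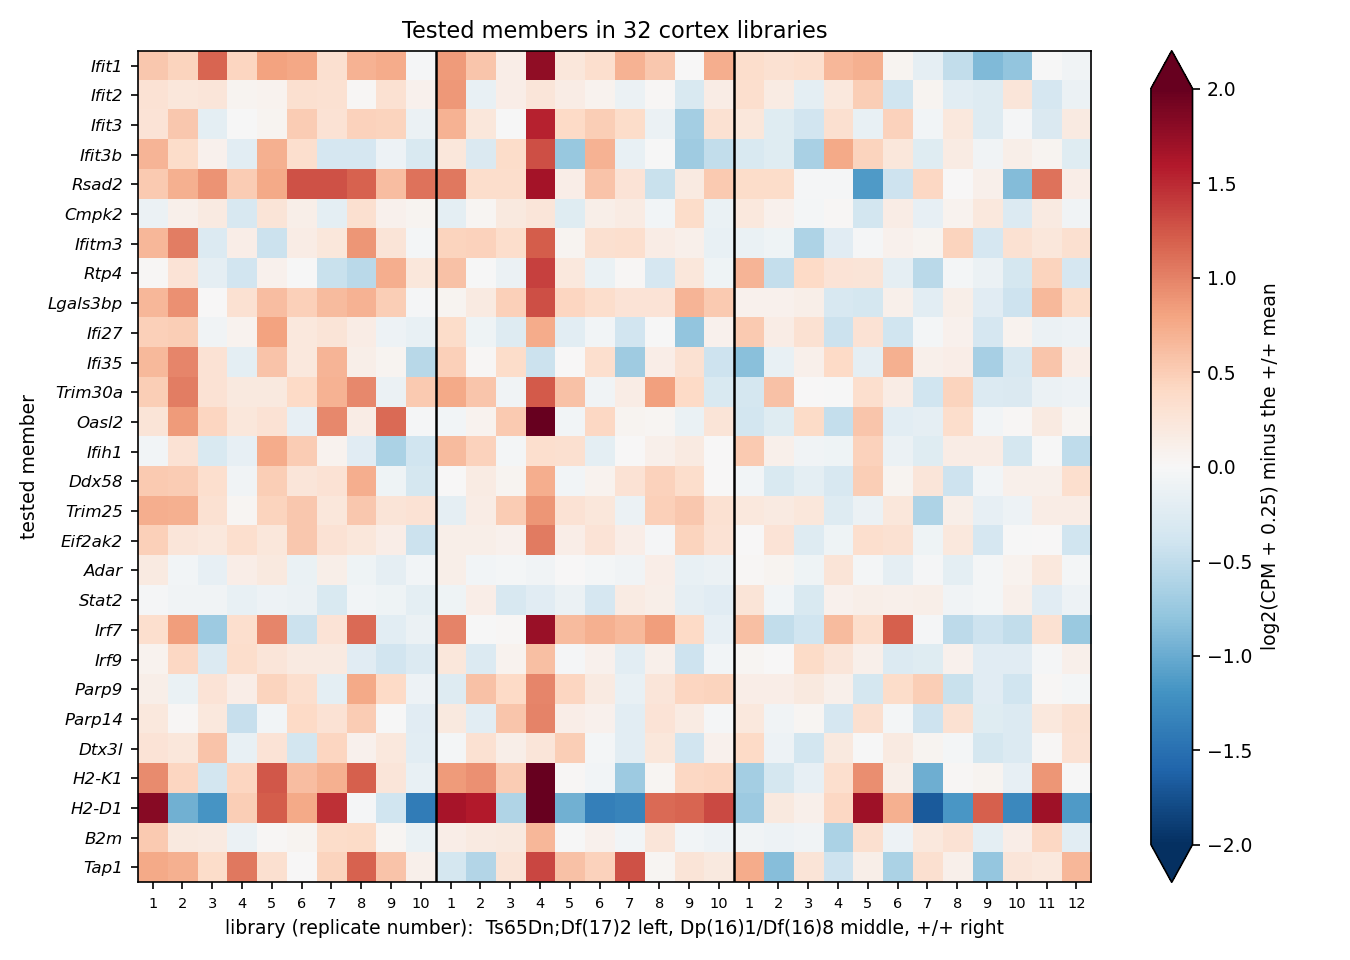
Log2(CPM + 0.25) minus the +/+ mean (colour, blue low to red high) for the 28 tested genes (rows, by role) in the 32 libraries (columns), with Ts65Dn;Df(17)2 left, Dp(16)1/Df(16)8 in the middle and +/+ right of the black lines. The column of Dp(16)1/Df(16)8 replicate 4 is red in most rows and pale for Adar, Stat2 and Cmpk2, and the H2-D1 row is red and blue in every genotype.

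Some other genes of the pathway were high in the same library. Of 68 tested ones outside the additional segment, 14 were at their highest of 32 libraries in it, beside 4.58% of all tested genes. At most 8 of the 68 were at their highest in any other library. Nlrc5, the activator of class I MHC transcription, was 4.92-fold above the other 9 Dp(16)1/Df(16)8 libraries, and Irgm1, Gbp3 and Iigp1 (interferon-induced GTPases) 2.17-fold, 2.19-fold and 2.18-fold. Others of the 68 went the other way. Slfn5 (0.292-fold) and Jak1 (0.862-fold) were at their lowest of 32 libraries in it. Ifit1bl1 (0.589-fold), Trex1 (0.690-fold) and Herc6 (0.711-fold) were also below the mean of the other 9. The genes named here were chosen after their values were seen. Markers of microglia summed to 423 CPM in it and to 383 ± 31 CPM in the other 9 (SD), and those of border macrophages and leukocytes to 22.3 and 22.9 ± 3.3 CPM. Endothelial and mural markers summed to 593 CPM in it, within the 499 to 657 CPM of its genotype. Of these, Cldn5 (1.53-fold) and Pecam1 (1.36-fold) were highest of 32 libraries. Only Flt1 (0.987-fold), Kcnj8 (0.825-fold) and Slc2a1 (0.757-fold) were below the mean of the other 9. All other endothelial and mural markers were above it, among them Tek (1.24-fold), Pdgfrb (1.23-fold) and Cdh5 (1.21-fold). In replicate 4 the mean log2 CPM of this list was 4.80, near the upper end of its genotype (4.35 to 4.91). Oligodendrocyte markers summed to 5655 CPM, the highest of its genotype, and excitatory cortical neuron markers to 3024 CPM, the lowest of its genotype. In that library the T cell marker Cd3d had 0 counts and the B cell marker Ms4a1 had 1. The 20 genes with the highest fold in it included 2 of the 35 genes and also Glp1r (3.84-fold) and Lhx8 (3.49-fold), which are not interferon genes, and its mean log2 CPM of striatal markers was 6.99, at the upper end of its genotype (3.30 to 7.20). The part of these markers in its profile was not tested.

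Ts65Dn;Df(17)2 was also set against Dp(16)1/Df(16)8, the comparison between a freestanding chromosome and a duplication in place. By edgeR's quasi-likelihood test 0 of 28 genes passed, beside 0.0499% of all genes, and 0 had an unadjusted p under 0.05, beside 4.10%. DESeq2 and limma voom called 0 as well. By the same approximation, the 95% interval of the fold was 0.924 to 1.82 for Rsad2, 0.909 to 1.25 for Trim25, 0.834 to 1.23 for Lgals3bp and 0.741 to 1.27 for Ifit1, so the interval for Rsad2 reached 1.82-fold. The score difference of 0.01 was below the spread between libraries of either genotype. Without Dp(16)1/Df(16)8 replicate 4 it was 0.0975, about the size of the spread between the other libraries of that genotype.

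Whether a genotype difference depended on sex was asked with interaction terms. By edgeR 0 of 28 genes passed, beside 0.00% of all genes, and 0 had an unadjusted p under 0.05, beside 4.22%. Without Dp(16)1/Df(16)8 replicate 2, again 0 passed and 1 (Rsad2) had an unadjusted p under 0.05, beside 4.07%. Scores averaged 0.21 ± 0.19 in males and 0.29 ± 0.18 in females of Ts65Dn;Df(17)2 (SD, n = 5 each), 0.11 ± 0.064 and 0.36 ± 0.37 in Dp(16)1/Df(16)8 (0.403 ± 0.42 in the 4 females other than replicate 2), and -0.06 ± 0.16 and 0.06 ± 0.088 in +/+ (n = 6 each). The female mean of Dp(16)1/Df(16)8 includes replicate 4 at 1.00, and the medians there were 0.121 in males and 0.193 in females. The sex term itself was looked at after the data were seen. The male to female change was below zero in 25 of 28 genes, 0 passed by edgeR, beside 0.0748% of all genes, and 5 had an unadjusted p under 0.05, beside 9.94%. These were Ifit1, Ifih1, Irf9, Ifi27 and Dtx3l. The share of all genes below zero is not given here, so the 25 of 28 has no background beside it. The sex term was not fitted without Dp(16)1/Df(16)8 replicate 4, the female with the highest score. Without Dp(16)1/Df(16)8 replicate 2 the change was below zero in 24 of 28, 0 passed by edgeR and 7 had an unadjusted p under 0.05 (Ifit1, Ifit2, Ifit3b, Ifi27, Ifih1, Irf7 and Irf9), beside 9.34%. Ifit1 had the smallest unadjusted p of the 28 for sex. For Ifit1 the 6 +/+ males had 0.664 to 1.43 CPM and the 6 +/+ females 1.51 to 2.53 CPM, without overlap. These levels rest on 5 to 21 counts in a +/+ library. The share of all genes that separate the sexes in this way is not given here. In Ts65Dn;Df(17)2 the males had 1.42 to 2.63 CPM and the females 2.02 to 3.53 CPM, and in Dp(16)1/Df(16)8 the males had 1.45 to 2.54 CPM and the females 1.61 to 5.53 CPM, so the sexes overlapped in both. The male minus female log2 difference of Ifit1 was 0.73 higher in Ts65Dn;Df(17)2 and 0.56 higher in Dp(16)1/Df(16)8 than in +/+, which did not pass as an interaction (adjusted p = 0.996, edgeR). The log2 difference of males to females over all genotypes was -0.47 ± 0.16 (SE, adjusted p = 0.433).

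The receptors that start the pathway were set beside its targets. Of the 6 interferon pathway genes inside the additional segment, 5 were tested and 4 rose in each aneuploid genotype. Ifnar1 had 72.9, 76.2 and 83.2 CPM in Ts65Dn;Df(17)2, 72.0, 82.2 and 90.0 CPM in Dp(16)1/Df(16)8, and 48.5, 52.4 and 55.2 CPM in +/+, with no overlap between either aneuploid group and +/+ (1.49-fold and 1.58-fold). Ifnar2 was 1.61-fold and 1.54-fold and Ifngr2 1.40-fold and 1.43-fold. Il10rb, the chain shared by receptors of interleukin 10 and interferon lambda, was 1.29-fold and 1.47-fold and did not pass (adjusted p of 0.147 and 0.0926). Mx2, a GTPase gene that is itself induced by interferon, had 1.31, 2.0 and 3.38 CPM in Ts65Dn;Df(17)2, 1.25, 1.75 and 4.86 CPM in Dp(16)1/Df(16)8, and 0.617, 1.07 and 1.55 CPM in +/+. It rose by log2 0.89 ± 0.21 in each (SE, adjusted p of 0.0175 and 0.0427, edgeR). The 4.86 CPM again belonged to Dp(16)1/Df(16)8 replicate 4, without which that log2 change was 0.68 (adjusted p = 0.0901). The call of Mx2 in Ts65Dn;Df(17)2 held in 7 of 11 alternatives, and was lost with the striatal score (adjusted p = 0.118), with the blocks (0.433), in males (0.202) and in females (0.237). In Dp(16)1/Df(16)8 it held in 3 of 9, and was lost with limma voom (0.0845), with no filter on low counts (0.0927), with only that genotype and +/+ (0.0984), with the striatal score (0.0819), in males (0.678) and in females (0.320). The call in Dp(16)1/Df(16)8 was also lost without Ts65Dn;Df(17)2 replicate 1, 2, 6, 7 or 9, Dp(16)1/Df(16)8 replicate 2, 6 or 10, or +/+ replicate 1, 2, 3, 4, 5, 6, 10 or 12. Mx1 was too low to test, at 0.448, 0.390 and 0.191 CPM on average.

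Outside the segment, 68 further pathway genes were tested in 5 lists. Tap2, the partner subunit of Tap1, rose by 0.47 ± 0.14 in Ts65Dn;Df(17)2 (adjusted p = 0.0488) and was at 0.38 ± 0.14 in Dp(16)1/Df(16)8 (adjusted p = 0.262). Ly6e, a surface protein with antiviral action, had 57.4, 71.1 and 87.1 CPM in Ts65Dn;Df(17)2, 65.0, 88.0 and 120 CPM in Dp(16)1/Df(16)8, and 59.9, 102 and 140 CPM in +/+. In Ts65Dn;Df(17)2 it fell, with a log2 change of -0.45 ± 0.11 (adjusted p = 0.0235, edgeR). The call of Tap2 held in 9 of the 32 fits that leave out 1 library, those without Ts65Dn;Df(17)2 replicate 10, Dp(16)1/Df(16)8 replicate 1, 4, 7 or 10, or +/+ replicate 6, 8, 11 or 12. The call of Ly6e was lost without Ts65Dn;Df(17)2 replicate 2 (adjusted p = 0.0526) or 7 (0.0515). Of the 11 alternatives to the main fit, the call of Ly6e held in 6 and that of Tap2 in 4. Of 9 tested interferon-induced GTPases 0 passed in either comparison by edgeR, with 9 above zero in Ts65Dn;Df(17)2 (median log2 0.36) and 8 in Dp(16)1/Df(16)8 (median 0.28). Of 34 further interferon-stimulated genes 1 rose, 1 fell and 32 did not pass in Ts65Dn;Df(17)2, with a median log2 of -0.01, against 0, 0 and 34 in Dp(16)1/Df(16)8. Beside these counts, 3.97% of all genes were called in Ts65Dn;Df(17)2 and 0.573% in Dp(16)1/Df(16)8. The 10 tested sensing genes had medians of 0.03 and 0.02, the 7 tested disomic receptors and kinases 0.02 and 0.03, and the 8 negative regulators 0.02 and 0.02.

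Markers of the cells that could bring such RNA were read beside these values. Microglial markers summed to 368 to 420 CPM in Ts65Dn;Df(17)2, 335 to 423 CPM in Dp(16)1/Df(16)8 and 304 to 473 CPM in +/+, and 1 of 16, Ctss, rose in Ts65Dn;Df(17)2 (1.36-fold, adjusted p = 0.00372). Over all genes 3.97% were called in that comparison. Border macrophage and leukocyte markers summed to 17.0 to 31.1, 16.1 to 27.9 and 15.8 to 27.8 CPM, and 0 of 6 tested passed by edgeR. The T cell marker Cd3d had 0 counts in all Ts65Dn;Df(17)2 libraries, 1 in the Dp(16)1/Df(16)8 and 0 in the +/+ libraries, and the B cell marker Ms4a1 had 2, 1 and 0. Endothelial and mural markers summed to 410 to 585, 499 to 657 and 416 to 614 CPM, with 0 of 15 passing by edgeR, 11 of 15 above zero in Ts65Dn;Df(17)2 and 14 in Dp(16)1/Df(16)8. Meningeal and fibroblast markers were all above zero, with medians of log2 0.33 and 0.11, and Col3a1 rose 1.82-fold in Ts65Dn;Df(17)2. In Ts65Dn;Df(17)2, 7 of 15 excitatory neuron markers fell, while striatal markers had a median log2 of 0.77 with 0 of 15 passing, and 0.52 in Dp(16)1/Df(16)8. The part of these cell types in the differences of Rsad2, Trim25 and Lgals3bp was not tested.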

How the data were processed

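The deposited table holds raw read counts per gene in 32 libraries of total RNA from mouse cerebral cortex, depleted of ribosomal RNA per the labels' protocols. Per the submitters' processing notes the software included STAR 2.7.9a, bcl2fastq 2.20, Subread 1.6.4 and featureCounts, and the builds GRCm38.p6 and GRCh38 are named. The strand setting, the annotation release and the role of each build are not given in the sources used here, and the counts are whole reads without molecular identifiers. Gene positions came from GENCODE M21 (GRCm38), which held 55141 of the 55401 genes.

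Genotype and sex were taken from the labels, and the 35 genes by symbol. Genes were filtered with filterByExpr by genotype, which left 16042 with 99.75% of the counts. Tests used edgeR 4.0.16 in R 4.3.3 with TMM factors and a quasi-likelihood model of genotype and sex over all 32 libraries, with p-values adjusted over 16042 genes (threshold 0.05). SE is the log2 change divided by the square root of F. Scores used log2 CPM with a prior count of 2. DESeq2 1.42.0, limma 3.58.1 and the other alternatives are compared in the closing part. The test was checked on simulated data. Over 156 pairs of libraries of one genotype the lowest chi-square per gene was 2.46, above counting noise, so none was taken as a repeat. Each animal gave 1 library.

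Described with values were genes past the threshold, in each role the gene with the highest CPM and the one with the smallest p, and genes in which 1 library stood apart. Of the other pathway genes, those past the threshold and 7 set by name were described, apart from some that are not reported here. The members, lists and rules were chosen with earlier results of these data known. The test of the sex term, with and without the library whose sex label its counts went against, and 3 alternatives for the library that stood apart were added after seeing the data. Of the list symbols, 2 were not found.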

Additional observations from a re-analysis of the deposited data

Results flagged for a closer look

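Among 72 values checked in the 2 groups of 10 libraries (35 genes and the score in each), 14 had their highest or lowest library apart from the other 9 by a gap of more than 0.466 of the range. Chance gives about 1 in 20 such gaps, and values of 1 library are not independent of each other. Of the 14, 12 were in Dp(16)1/Df(16)8 replicate 4. There H2-D1 had 41.9 CPM, H2-K1 21.1, B2m 50.1, Lgals3bp 22.3, Eif2ak2 16.1, Ifit3 9.89, Ifitm3 8.21, Oasl2 8.05, Ifit1 5.53, Rtp4 4.19 and Irf7 3.18 CPM, each the highest of its genotype, and the score was 1.00. The other 2 were Ifit2 with 17.0 CPM in Dp(16)1/Df(16)8 replicate 1, the highest of its genotype, and Eif2ak2 with 5.68 CPM in Ts65Dn;Df(17)2 replicate 10, the lowest of its genotype.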

How the results depend on the processing

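The 3 calls among the 28 genes in Ts65Dn;Df(17)2 against +/+ were as many with RLE factors, DESeq2 and limma voom, and 4, with Ifit1, when only these 2 genotypes were fitted. They numbered 0 with no filter on low counts (adjusted p of 0.0558 for Rsad2, 0.0570 for Trim25 and 0.0658 for Lgals3bp), with the striatal score as a term, with blocks of animal numbers as a term, in females only and in males only, and 1 without the 2 animals of the lowest numbers. The cause was not tested, except that the fits by sex hold fewer samples. Leaving out 1 library gave 0 to 4 calls, with Ifit1 among them without Dp(16)1/Df(16)8 replicate 4 or +/+ replicate 11, 0 without Ts65Dn;Df(17)2 replicate 2, 6, 7 or 8 or +/+ replicate 4, 5, 9 or 10, and 1 without Ts65Dn;Df(17)2 replicate 1 or +/+ replicate 7. Of the other pathway genes 7 were called in Ts65Dn;Df(17)2, 3 with the striatal score, 3 with the blocks, 4 without the 2 animals of the lowest numbers, 2 in females and 2 in males, and 4 to 9 with 1 library left out (4 without Ts65Dn;Df(17)2 replicate 2 or 7). In Dp(16)1/Df(16)8 the 0 calls became 1 with the blocks (Lgals3bp, log2 0.51, adjusted p = 0.0342, edgeR) and 0 to 1 with 1 library left out (Lgals3bp, adjusted p = 0.0450, without +/+ replicate 11), and the 4 other pathway genes became 2 in males and 3 to 6 with 1 library left out. No gene of the 28 was called between Ts65Dn;Df(17)2 and Dp(16)1/Df(16)8 in any of the 11 alternatives or of the 32 fits with 1 library left out.

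The score difference to +/+ was 0.25 in Ts65Dn;Df(17)2 and 0.24 in Dp(16)1/Df(16)8, and 0.227 to 0.287 and 0.151 to 0.261 with 1 library left out. As log2 of the summed CPM it was 0.0838 and 0.0785. Between Ts65Dn;Df(17)2 and Dp(16)1/Df(16)8 it was 0.0123 and turned to -0.0741 in females only. It was -0.0124 to 0.0975 when 1 library was left out, with 0.0975 without Dp(16)1/Df(16)8 replicate 4. All of these are below the SD over all libraries of either genotype. The 19 genes at their highest in Dp(16)1/Df(16)8 replicate 4 were 19 with a prior count of 0.5, 19 with RLE factors and 21 with library totals alone. No paired analysis was possible because the labels give no replicate number shared between genotypes. Depth limits the 7 genes below the filter, most of all Zbp1 and Isg15 with at most 3 and 8 counts in a library.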
